A study of Mus musculus with 8 samples.

Results

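The genes described here make and use nicotinamide adenine dinucleotide (NAD), the molecule that SIRT1 needs in order to remove acetyl groups from proteins. They are 10 mouse genes, *Nampt*, *Nmnat1*, *Nmnat2*, *Nmnat3*, *Nadsyn1*, *Naprt*, *Nmrk1*, *Nmrk2*, *Parp1* and *Cd38*, and every array probe whose transcript accession belongs to 1 of them was kept. No probe matched *Nmnat1*, which is not analysed here, and the other 9 genes have 14 probes, among 19096 named genes and 41174 probes on the array. RNA was measured in hearts of late mouse embryos (E18.5), 4 samples labelled wild type (WT) and 4 labelled SIRT1 knockout (SIRT1 KO), all of the C57BL/6 strain (C57BL/6J in the study's methods) and from mice kept on chow with no other treatment. The knockout is a whole-body, germ-line deletion of *Sirt1* from matings of heterozygous mice, so the loss is not limited to heart cells. Each array holds a separate embryo per the study's legends, and the labels do not say which embryos were littermates.

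NAD carries electrons in energy metabolism, and it is also broken down as a substrate by sirtuins, by poly(ADP-ribose) polymerases and by NAD glycohydrolases. Most tissues rebuild it by salvage. NAMPT turns nicotinamide, the by-product of these consuming enzymes, into nicotinamide mononucleotide, the NMRK kinases make the same intermediate from nicotinamide riboside, and the NMNAT enzymes complete the dinucleotide. A separate route starts from nicotinic acid through NAPRT and ends with the amidation step of NADSYN1. In heart muscle NAMPT is regarded as the main entry point, and *Nmrk2* is a muscle-enriched gene known to respond to cardiac stress.

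Each spot's processed intensity was put on a log2 scale and the 75th percentile of its own array was subtracted, so that a log2 signal of 0 is the level of that percentile. Probes have different binding strengths, and a probe's level is therefore compared only with itself across arrays. That percentile was 939 to 1033 intensity units in the WT arrays, 777 to 906 in the SIRT1 KO arrays, and 59.5% to 64.9% of probes were well above background. The WT arrays share 1 slide and scan day and the SIRT1 KO arrays another, so slide and genotype cannot be told apart. *Sirt1* itself was not lower past the threshold in the samples labelled SIRT1 KO on either of its 2 probes. On 1 of its probes (A_52_P358612) it was 0.04 ± 0.19 (SD, n = 4) in WT and 0.58 ± 0.14 (SD, n = 4) in SIRT1 KO, a log2 fold change of 0.54 (limma adjusted p = 0.0323), and on the other (A_51_P141152) the log2 fold change was -0.11 (limma adjusted p = 0.589). Which exons these probes read was not examined, and directions below compare the SIRT1 KO label with the WT label.

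No tested NAD gene probe differed between the genotypes past an adjusted p of 0.05. The 2 probes with the largest differences were those of the nicotinamide riboside kinases, in opposite directions. The *Nmrk1* signal was higher in the SIRT1 KO samples, 1.31-fold, and the *Nmrk2* signal was lower, at 0.681 of the WT level, in both cases with no overlap between the genotypes. Neither passed an adjusted p of 0.05. Of the 14 probes, 12 reached the detection limit for testing, well above background in 4 or more of the 8 arrays, and they cover 8 genes. With limma and Benjamini-Hochberg adjustment over all 25615 tested probes, 0 of the 12 passed, where 4.88% of all tested probes did. At an unadjusted p under 0.05 there were 2, *Nmrk1* and *Nmrk2*, beside 21.5% of all tested probes, and the methods' analysis of variance gave 1, *Nmrk1*, and 0 after adjustment. The genotypes did not overlap on the same 2 probes, beside 13.7% of all tested probes. The means were higher in SIRT1 KO for 7 probes and lower for 5, and the median log2 fold change was 0.03, beside 0.01 over all tested probes. This split follows the scaling. With arrays scaled to their medians, which moved the median of all tested probes to -0.12, 2 of the 12 were higher, and with no scaling, which moved it to -0.21, 1 was.

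**Figure D1:**
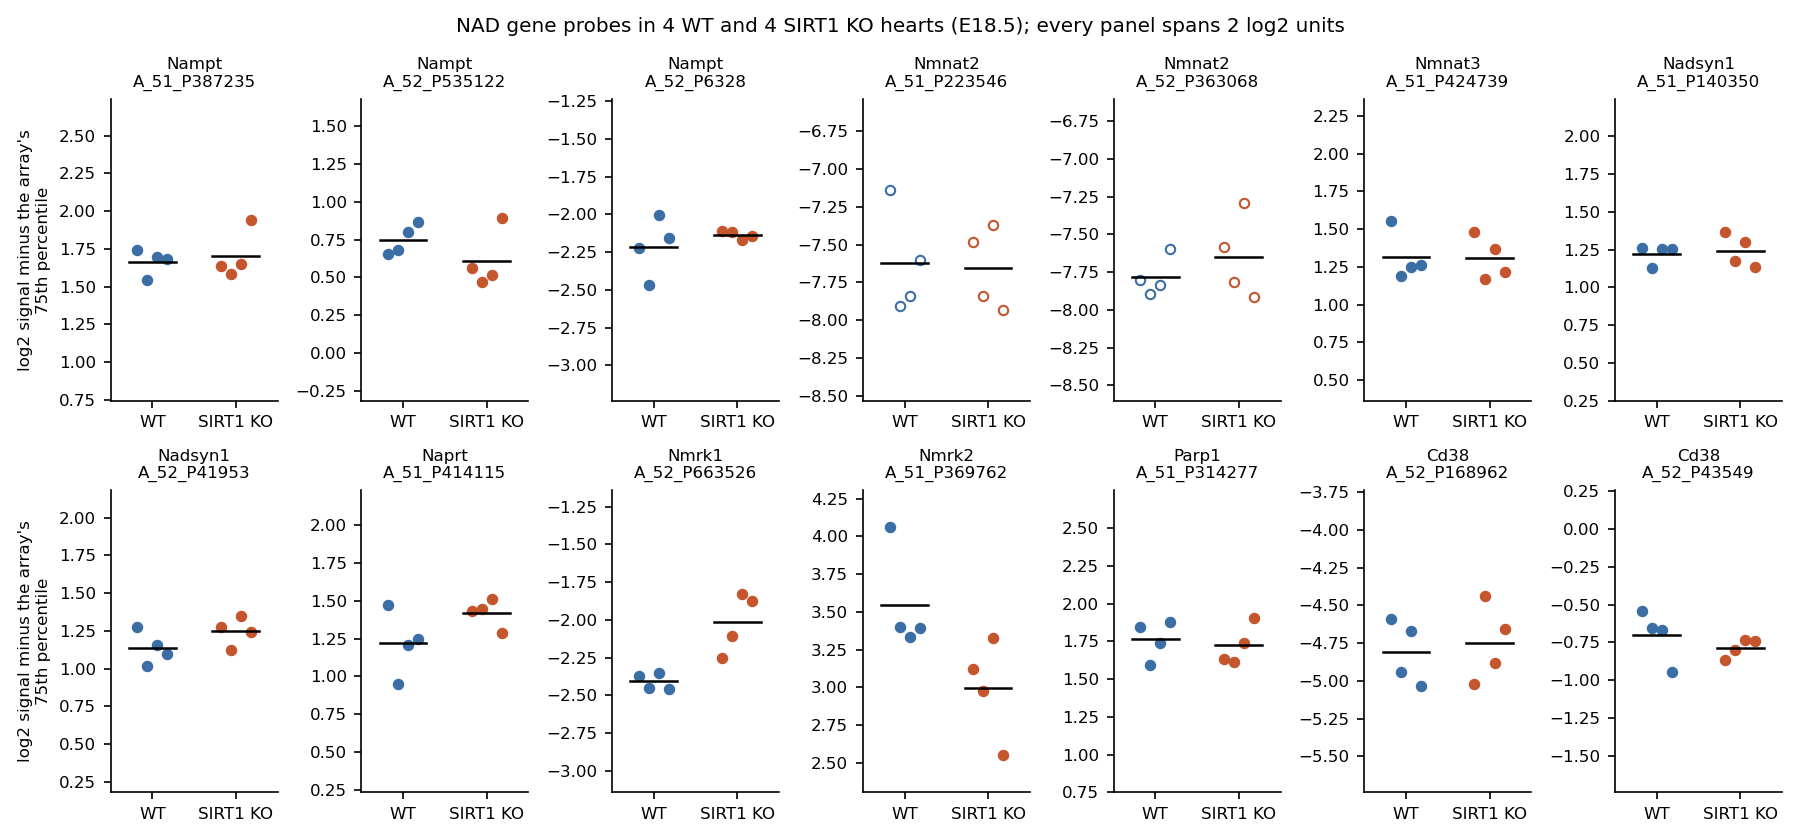
Log2 signal of each of the 14 NAD gene probes, minus the 75th percentile of its array, in 4 WT samples (blue, in replicate order) and 4 SIRT1 KO samples (orange), with the group mean as a black line; every panel spans the same range of log2 units, and open points mark the *Nmnat2* probes, not well above background in any sample. The groups lie apart on the *Nmrk1* and *Nmrk2* panels, by a gap of 0.10 for *Nmrk1* and of 0.0069 for *Nmrk2*, and overlap on the other tested probes.

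*Nmrk1* encodes the widely expressed nicotinamide riboside kinase. Its single probe (A_52_P663526) read -2.37, -2.45, -2.35 and -2.46 in WT replicates 1 to 4 and -2.25, -2.11, -1.83 and -1.87 in SIRT1 KO replicates 1 to 4. The WT samples lay within a narrow band, and all SIRT1 KO samples lay above it, replicates 3 and 4 the farthest and replicate 1 the nearest. The means were -2.41 ± 0.06 (SD, n = 4) and -2.02 ± 0.20 (SD, n = 4), a log2 fold change of 0.39 (standard error 0.10, limma adjusted p = 0.0684), with a 95% confidence interval from 0.16 to 0.63. The exact two-sided permutation test gave p = 0.0286, the smallest that 4 samples against 4 allow. Without SIRT1 KO replicate 1 the log2 fold change was 0.47 and passed (limma adjusted p = 0.0398), and without each of the other samples it lay between 0.33 and 0.42 and did not pass.

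*Nmrk2* encodes the muscle form of the same kinase. Its single probe (A_51_P369762) read 4.06, 3.40, 3.33 and 3.39 in WT replicates 1 to 4 and 3.12, 2.97, 3.33 and 2.55 in SIRT1 KO replicates 1 to 4. WT replicate 1 lay far above the other WT samples and SIRT1 KO replicate 4 below all others, while the lowest WT and the highest SIRT1 KO value differed by only 0.0069. The means were 3.55 ± 0.34 (SD, n = 4) and 2.99 ± 0.33 (SD, n = 4), a log2 fold change of -0.55 (standard error 0.20, limma adjusted p = 0.162), with a 95% confidence interval from -1.01 to -0.09. The exact two-sided permutation test again gave its smallest value, p = 0.0286. The spread of *Nmrk2* within a genotype, a pooled SD of 0.34, was above that of 90.1% of tested probes, and the size of its difference leaned on single samples. It was -0.38 when WT replicate 1 was left out and -0.41 when SIRT1 KO replicate 4 was (limma adjusted p = 0.273 and 0.275). Before any scaling, the processed intensity ran from 9868 to 17083 in WT and from 5052 to 7884 in SIRT1 KO, and without scaling *Nmrk2* passed the threshold at a log2 fold change of -0.77 (limma adjusted p = 0.0288), as did 24.8% of all tested probes in that fit, whose median log2 fold change over all probes was -0.21. The alternative called normexp here replaced the scanner's processed signal by its median signal and corrected that for background by normexp with an offset of 50, so the effects of the signal and of the correction cannot be told apart. It moved neither size by much, and both kinases passed the threshold in it, *Nmrk1* at 0.40 (limma adjusted p = 0.0122) and *Nmrk2* at -0.58 (limma adjusted p = 0.0458), and with it 10.02% of all tested probes passed.

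**Figure D2:**
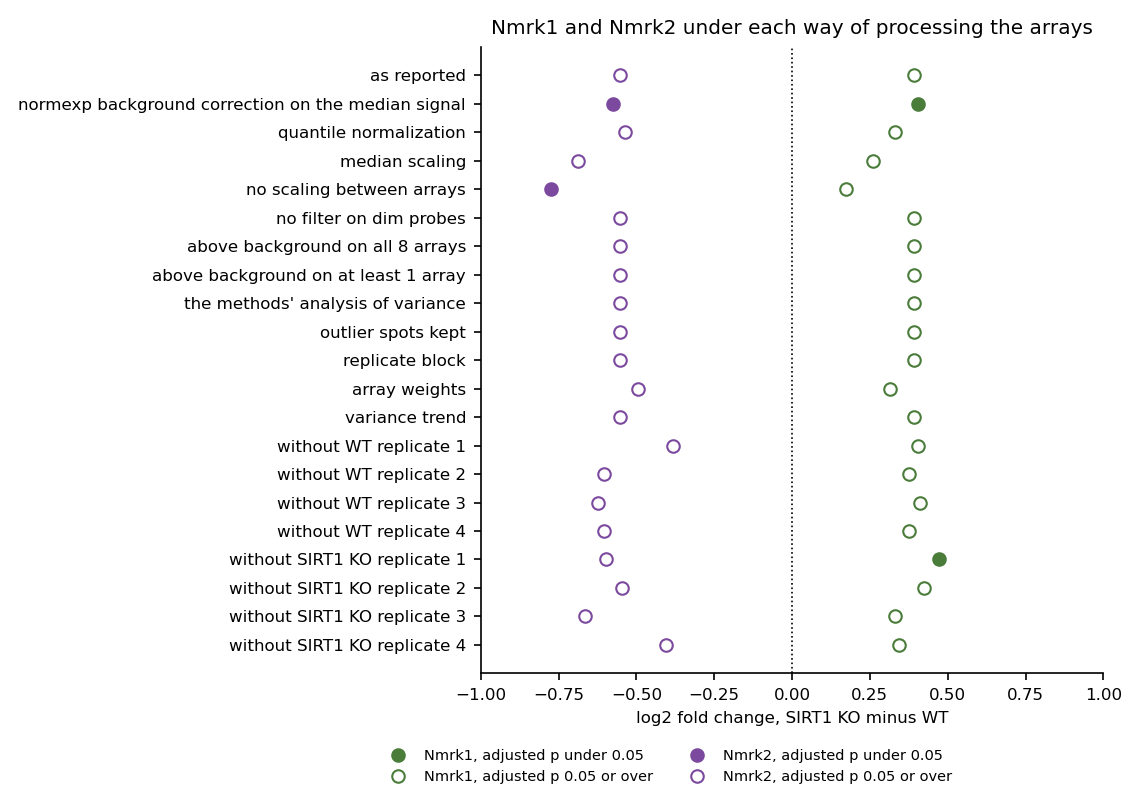
Log2 fold change (SIRT1 KO minus WT) of *Nmrk1* (green) and *Nmrk2* (purple) as reported and under each alternative way of processing the arrays or leaving out 1 sample; filled points have a limma adjusted p under 0.05 (for the methods' analysis of variance, its own adjusted p). *Nmrk1* stays above 0, from 0.17 to 0.47, and *Nmrk2* below 0, from -0.77 to -0.38, and 2 filled points appear for each.

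The difference between both kinase probes within an array does not depend on a constant added to that array's log2 values. The *Nmrk1* value minus the *Nmrk2* value was -6.43, -5.86, -5.68 and -5.85 in the WT samples and -5.38, -5.08, -5.16 and -4.42 in the SIRT1 KO samples. Every SIRT1 KO value was nearer 0 than every WT value. This follows from the lack of overlap on each of the probes and adds nothing to it. Its genotype difference was 0.95 log2 units, from -5.96 ± 0.33 (SD, n = 4) to -5.01 ± 0.41 (SD, n = 4), and with 1 sample left out it lay between 0.75 and 1.07. This pair was chosen after its values were seen and was not tested. Both kinases lie in signal ranges where calls were uneven across the array. The tested probes were split by mean signal into 3 bins of equal size. In the middle bin, which holds *Nmrk1*, 3.03% passed as higher and 0.996% as lower. In the brightest, which holds *Nmrk2*, 1.12% passed as higher and 0.703% as lower. In the dimmest, 7.75% passed as higher and 1.03% as lower. That bin ends at a mean log2 signal of -2.40, close to the WT mean of *Nmrk1*, -2.41.

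The start regions of both genes are shown because these were the members whose genotypes did not overlap. Such a lack of overlap was found on 13.7% of all tested probes. The sequences are those of RefSeq on the mouse assembly GRCm38.p6, 250 bases before and 50 after the annotated transcription start, 5′ to 3′ along the gene. Motifs were searched on both strands, and capitals mark a match to the TATA box TATAAA in *Nmrk2* and, in *Nmrk1*, a match to the letters CCAAT as they read from the other strand. *Nmrk1* lies at chr19:18631766-18632065 on the + strand and *Nmrk2* at chr10:81201988-81202287 on the - strand.
Nmrk1: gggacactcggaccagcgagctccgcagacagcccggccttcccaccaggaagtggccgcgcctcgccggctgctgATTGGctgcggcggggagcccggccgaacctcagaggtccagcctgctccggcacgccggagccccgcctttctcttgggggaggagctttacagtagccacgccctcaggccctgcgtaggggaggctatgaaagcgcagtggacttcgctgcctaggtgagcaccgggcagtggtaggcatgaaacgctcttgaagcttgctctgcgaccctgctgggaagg
Nmrk2: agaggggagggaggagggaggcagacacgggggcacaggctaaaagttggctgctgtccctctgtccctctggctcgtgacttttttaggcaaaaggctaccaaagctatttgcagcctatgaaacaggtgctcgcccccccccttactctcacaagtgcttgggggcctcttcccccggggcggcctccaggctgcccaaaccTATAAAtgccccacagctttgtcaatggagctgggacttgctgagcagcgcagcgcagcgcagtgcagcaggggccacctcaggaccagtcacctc
*Nmrk2* holds TATAAA starting 46 bases before its start, a match present in 13.6% of all 32851 promoter windows of this length, and it was the only one among the 9 members with a listed promoter. *Nmrk1* holds the CCAAT match 174 bases before its start, which 37.4% of all windows do, *Nmnat1* among them. The E-box CANNTG, present in 72.3% of windows on either strand, was found in *Nmrk2* and not in *Nmrk1*, and its special form CACGTG, present in 7.15%, among the members only in *Parp1*. A match describes the letters of the window and not binding. *Naprt* had no listed promoter.

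*Nampt*, the rate-limiting enzyme of salvage from nicotinamide, was read by 3 probes, all well above background on all 8 arrays, and none differed past the threshold. The first (A_51_P387235) read 1.74, 1.54, 1.70 and 1.69 in WT and 1.64, 1.58, 1.65 and 1.94 in SIRT1 KO. A second probe (A_52_P535122) read 0.65, 0.68, 0.80 and 0.86 in WT and 0.56, 0.47, 0.52 and 0.89 in SIRT1 KO. On both, SIRT1 KO replicate 4 was the highest of all samples and the groups overlapped, on the second probe through that sample alone. The log2 fold changes were 0.04 (95% confidence interval -0.18 to 0.25), -0.14 (-0.38 to 0.10) and, on the third probe (A_52_P6328), 0.08 (-0.14 to 0.30). That probe ranged from -2.46 to -2.01 in WT and from -2.17 to -2.11 in SIRT1 KO. Without SIRT1 KO replicate 4 the second probe was at -0.23, and without SIRT1 KO replicate 2 at -0.092, and neither fit passed. Without scaling between arrays it passed at -0.36 (limma adjusted p = 0.0491), where 24.8% of all tested probes did. The difference between the first and the second *Nampt* probe within an array was 0.18 log2 units larger in SIRT1 KO (exact two-sided permutation p = 0.0857, adjusted p = 0.286 over the 5 probe pairs compared). With quantile normalization it was 0.20 and with normexp 0.22, both at the smallest p that 4 against 4 allow, 0.0286, in this exact permutation test, where the adjusted p was 0.143 and 0.0714. With normexp the *Cd38* pair differed too, by -0.27 log2 units between the genotypes, at the same exact p of 0.0286 (adjusted p = 0.0714), beside -0.14 as reported. In this exact permutation test neither 1 nor 2 differing pairs among 5 can pass an adjusted p of 0.05.

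The enzymes that complete the dinucleotide did not differ past the threshold either. *Nmnat3*, the mitochondrial adenylyltransferase, read 1.56, 1.19, 1.25 and 1.26 in WT and 1.48, 1.17, 1.37 and 1.22 in SIRT1 KO, so each genotype ran over nearly the same range. Its log2 fold change was -0.0047, with a 95% confidence interval from -0.25 to 0.24. *Nmnat2*, the form best known from neurons, where it protects axons, had 2 probes, neither of them well above background in any sample, so no fold is given. *Nadsyn1*, the last enzyme of the nicotinic acid route, had 2 probes with means of 1.22 ± 0.06 and 1.24 ± 0.11 (A_51_P140350) and of 1.14 ± 0.11 and 1.25 ± 0.09 (A_52_P41953) in WT and SIRT1 KO (SD, n = 4 each). The log2 fold changes were 0.02 (95% confidence interval -0.16 to 0.20) and 0.11 (-0.08 to 0.30). *Naprt*, which starts that route, read 1.48, 0.95, 1.21 and 1.25 in WT and 1.43, 1.45, 1.51 and 1.29 in SIRT1 KO. All SIRT1 KO samples lay above WT replicates 2 to 4, and WT replicate 1 lay above all but 1 of them. Its log2 fold change of 0.20 (standard error 0.11, limma adjusted p = 0.340) had a 95% confidence interval from -0.05 to 0.45. It was 0.11 when WT replicate 2 was left out, ran up to 0.29 with other samples left out, and was -0.020 without scaling between arrays.

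The consuming enzymes showed no difference past the threshold. *Parp1*, the main nuclear poly(ADP-ribose) polymerase, which uses NAD in the response to DNA damage, read 1.85, 1.59, 1.74 and 1.88 in WT and 1.64, 1.61, 1.74 and 1.90 in SIRT1 KO. The genotypes covered nearly the same range, with a log2 fold change of -0.04 (95% confidence interval -0.26 to 0.18). *Cd38*, a surface NAD glycohydrolase best known from leukocytes, had a brighter probe (A_52_P43549) that read -0.54, -0.65, -0.67 and -0.95 in WT and -0.87, -0.80, -0.73 and -0.74 in SIRT1 KO, a log2 fold change of -0.08 (95% confidence interval -0.30 to 0.13). Its dimmer probe (A_52_P168962), well above background on 4 WT and 3 SIRT1 KO arrays, gave 0.06 (-0.28 to 0.40). Over the 10 tested probes other than those of the kinases, every log2 fold change lay within 0.25 of 0 and the 95% confidence intervals lay between -0.38 and 0.45, that is between 0.769 and 1.37 of the WT level. For each probe, a difference anywhere inside its own interval remained possible with 4 samples per genotype.

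**Figure D3:**
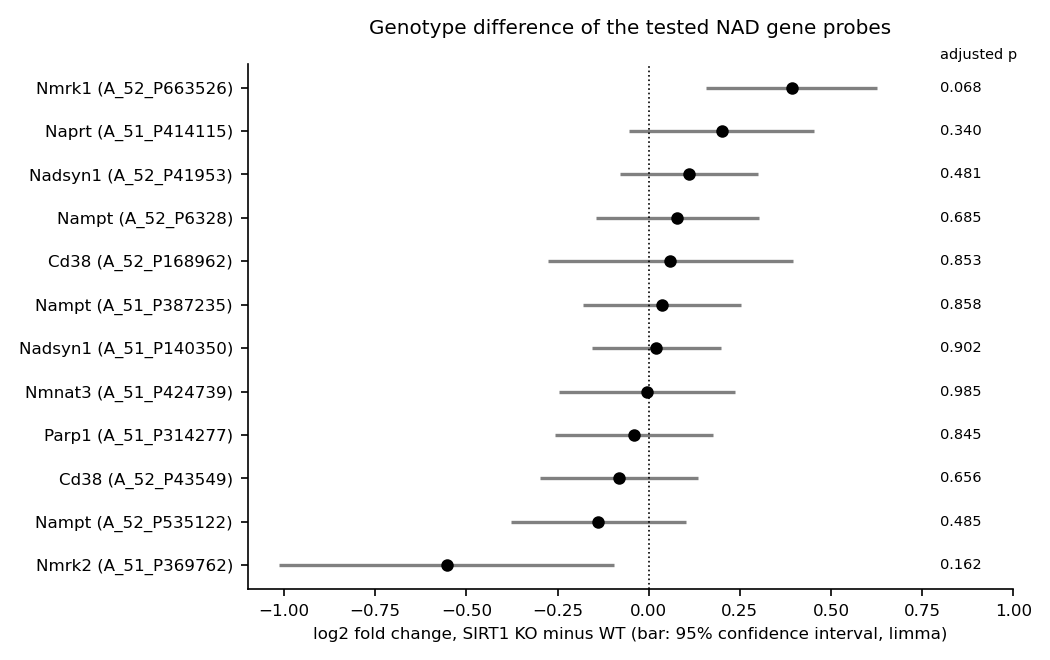
Log2 fold change (SIRT1 KO minus WT) of the 12 tested NAD gene probes with its 95% confidence interval from limma as a bar, and the adjusted p at the right. The intervals of *Nmrk1* (0.16 to 0.63) and *Nmrk2* (-1.01 to -0.09) exclude 0 before adjustment, the other 10 include it, and the adjusted p is above 0.05 on all 12.

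The wider NAD pathway was taken from 6 lists with 57 further genes, of which 53 were on the array and 46 were tested, each by its brightest probe. Of these, 4 passed, *Bst1* and *Nt5e* lower and *Sirt1* and *Sirt4* higher in SIRT1 KO, which is 8.70% of the 46, beside 4.58% of all 13594 genes tested in this way. *Sirt1* is the gene targeted in the knockout, and its dimmer probe (A_51_P141152) did not pass, at -0.11 (limma adjusted p = 0.589). The median log2 fold change over the 46 was -0.05. *Bst1* encodes CD157, the close relative of CD38. Its probe (A_51_P499838) read -3.05, -2.69, -2.91 and -2.99 in WT and -3.42, -3.59, -3.43 and -3.68 in SIRT1 KO, with all SIRT1 KO samples below all WT samples. *Bst1* fell by 0.62 on the log2 scale (standard error 0.10, limma adjusted p = 0.0107) and passed with each sample left out, but with normexp on the median signal, which also adds the offset of 50, the log2 fold change was -0.18 (limma adjusted p = 0.189). *Bst1* minus *Cd38* within an array, a difference chosen after the values were seen and not tested, was lower by 0.54 log2 units in SIRT1 KO with the brighter *Cd38* probe, where the genotypes did not overlap, and by 0.68 with the dimmer one, where they did. With normexp these differences were -0.11, with overlap, and -0.38, without.

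Among the 9 tested genes that handle or clear NAD precursors, 8 had a lower and 1 a higher mean in SIRT1 KO, with a median log2 fold change of -0.21, counts that were the same with quantile normalization, 9 and 0 with median scaling, and 7 and 2 with normexp, and likewise 7 and 2 in the fits that left out WT replicate 2, WT replicate 3 or SIRT1 KO replicate 1. *Nt5e* encodes CD73, a surface enzyme that splits nicotinamide mononucleotide and AMP into their nucleosides. It read 0.37, 0.62, 0.43 and 0.29 in WT and -0.16, 0.16, -0.04 and -0.28 in SIRT1 KO (A_52_P574668), again without overlap. *Nt5e* fell by 0.51 on the log2 scale (standard error 0.11, limma adjusted p = 0.0363), which passed in 2 of the 8 fits that leave out 1 sample, those that drop SIRT1 KO replicate 2 or replicate 3, where the adjusted p was 0.0273 and 0.0490. It did not pass with no filter on dim probes, with 1 array above background as the filter, or with the methods' analysis of variance. Its second probe (A_51_P156740) was too dim to test. *Nnmt*, which methylates nicotinamide for clearance, had a log2 fold change of -0.24 (limma adjusted p = 0.207).

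None of the other non-sirtuin lists held a gene past the threshold. Of the kynurenine route from tryptophan, 8 genes were on the array and 6, *Tdo2*, *Ido1*, *Ido2*, *Kmo*, *Kynu* and *Acmsd*, were too dim to test, while *Afmid* and *Qprt* had log2 fold changes of -0.12 and -0.04. Of the 6 tested genes for NADP, redox repair and mitochondrial NAD or folate carriers, *Slc25a32* and *Nadk2* had the smallest p, with -0.20 and 0.17 (limma adjusted p = 0.188 and 0.424). Among the 21 tested ADP-ribosyl transferases and hydrolases 7 means were higher and 14 lower, but this majority was not stable, at 9 and 12 with quantile normalization, 2 and 19 with median scaling, 12 and 9 with normexp, and 11 and 10 without SIRT1 KO replicate 2. *Parp8* and *Parp10* had the smallest p of them, with 0.26 and 0.12 (limma adjusted p = 0.116 and 0.340). *Parp8* passed in 3 of 20 alternatives, with normexp, with array weights and without SIRT1 KO replicate 3. The sirtuins use NAD as *Parp1* does, and of 7 tested, *Sirt1* was given above and *Sirt4* rose by 0.38 on the log2 scale (standard error 0.09, limma adjusted p = 0.0403). With 1 sample left out *Sirt4* passed in 2 of 8 fits, those that drop WT replicate 1 or SIRT1 KO replicate 3, and *Sirt1* in 2 as well, those that drop WT replicate 2 or SIRT1 KO replicate 3. Neither passed in limma with median scaling, where *Sirt4* was 0.25 and *Sirt1* 0.40 (adjusted p = 0.0985 and 0.0608), without scaling, where they were 0.16 and 0.32 (adjusted p = 0.316 and 0.117), with the replicate number as a block (adjusted p = 0.0765 and 0.0644), or with no filter on dim probes (adjusted p = 0.0829 and 0.0679), and *Sirt4* also did not where 1 array above background was the filter (adjusted p = 0.0518). The methods' analysis of variance gave them adjusted p-values of 0.0700 and 0.0865.

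**Figure D4:**
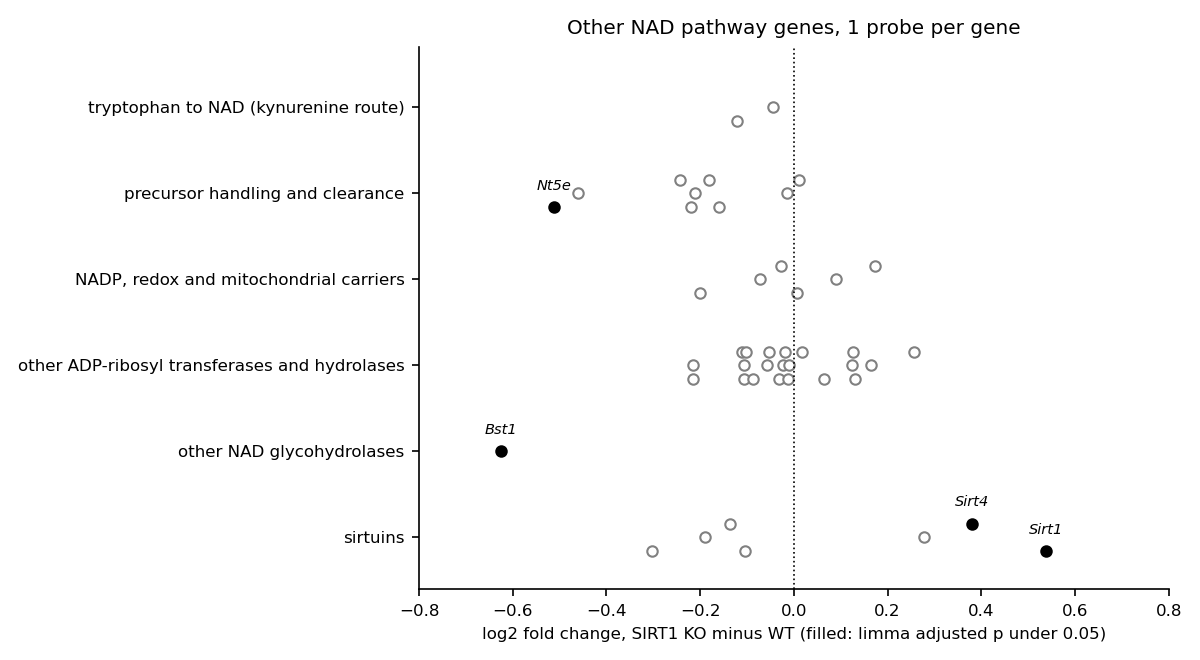
Log2 fold change (SIRT1 KO minus WT) of the 46 tested genes of the wider NAD pathway, 1 probe per gene, by list; filled points have a limma adjusted p under 0.05 and are named. *Bst1* (-0.62) and *Nt5e* (-0.51) lie lowest and *Sirt1* (0.54) and *Sirt4* (0.38) highest.

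The hearts were whole organs, and in bulk RNA fewer cells of a type and less RNA per cell cannot be told apart. All 10 cardiomyocyte markers were well above background in every sample, and their summed signal, in multiples of the 75th percentile, ran from 1607 to 1761 in WT and from 1745 to 2002 in SIRT1 KO. The liver marker sum, over the 7 of 8 genes on the array, ran from 4.14 to 13.6 in WT and from 5.03 to 60.9 in SIRT1 KO, highest in SIRT1 KO replicates 1 and 4. In *Nmrk1*, replicate 1 was the lowest of the SIRT1 KO samples and replicate 4 among the highest. The skeletal muscle sum ran from 134 to 165 in WT and from 140 to 172 in SIRT1 KO. WT replicate 1 had the highest WT value for that list and for *Nmrk2*. SIRT1 KO replicate 4 had the lowest SIRT1 KO value for both. The leukocyte sum, which bears on *Cd38* and *Bst1*, ran from 1.58 to 2.22 in WT and from 1.56 to 2.71 in SIRT1 KO, and *Cd79a* of that list was not well above background in any sample. The endothelial sum ran from 37.3 to 43.1 in WT and from 32.9 to 39.6 in SIRT1 KO. Over the 7 marker lists, which also covered red blood cells and nerve, *Sox10*, *Hbb-y* and *Myog* passed the threshold, all higher in SIRT1 KO, which is 6.67% of the 45 marker genes tested, beside the 4.58% of all genes given above. The part of these cell types in the results was not tested.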

How the data were processed

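RNA from E18.5 hearts was labelled with Cy3 and hybridized to single-color Agilent arrays, 1 array per sample. The authors deposited the intensity of every spot as Agilent Feature Extraction wrote it (version 12 per the labels, 12.0.0.7 per the file headers), background-subtracted and without scaling between arrays. Here control and outlier spots were left out, spots of a probe were averaged, and each array's 75th percentile was subtracted on the log2 scale. Accessions named 68.5% of 41174 probes through RefSeq (GRCm38.p6). Probes marked well above background in 4 or more of the 8 arrays were fitted with limma 3.58.1 in R 4.3.3 (lmFit, eBayes), with genotype as the only term and Benjamini-Hochberg adjustment over all of them. The exact two-sided permutation test was computed with scipy 1.17.1 and numpy 2.4.6 in Python 3.11.15. The fit was tested on simulated data. Members and gene lists were chosen with earlier results of these data known. The genes named are every member probe, *Sirt1*, and, of each further list, those past the threshold and the 2 with the smallest p. Alternatives changed background correction, scaling, filter, test, weights and samples. A deposited table of the whole series held these intensities unchanged (equal to within a relative 1e-05). No spot was saturated, and the number of arrays limits the precision.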

Additional observations from a re-analysis of the deposited data

Results flagged for a closer look

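In 32 groups of 4 samples examined, 3 held a sample far from its group, where chance gives about 1 in 20. In the WT samples, replicate 2 had the lowest *Nadsyn1* signal (A_51_P140350, log2 signal 1.13), with a gap to its neighbour that was 0.928 of the range of the group. WT replicate 1 had the highest *Nmrk2* signal (4.06), with a gap of 0.908 of the range. SIRT1 KO replicate 3 had the lowest *Sirt4* signal of the SIRT1 KO samples (1.66), with a gap of 0.971 of the range.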

How the results depend on the processing

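Of the member probes, 0 passed the threshold as reported and under quantile normalization, median scaling, the other filters on dim probes, outlier spots kept, array weights, a variance trend and the methods' analysis of variance. With normexp background correction of the median signal in place of the processed signal (chosen after seeing the data) 2 passed, *Nmrk1* and *Nmrk2*, and without scaling 2, *Nmrk2* and *Nampt* (A_52_P535122). With 1 sample left out the count lay between 0 and 1, the 1 being *Nmrk1* without SIRT1 KO replicate 1. Of the wider pathway 4 genes passed as reported, 2 with median scaling, 12 without scaling, 1 without a filter on dim probes, 2 when 1 array above background was enough, 1 with the methods' analysis of variance, and between 1 and 5 with 1 sample left out. Over all probes 1250 passed, and 2566 with normexp, 1904 with median scaling, 6352 without scaling, 546 with the analysis of variance, and 657 to 1825 with 1 sample left out. Normexp on the mean signal was not run, since the files used here give the median signal. Of the 5 probe pairs the smallest adjusted p was 0.286, 0.143 with quantile normalization and 0.0714 with normexp. These are from the exact permutation test, where neither 1 nor 2 differing pairs among the 5 can pass.

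The direction of *Nmrk1* and *Nmrk2* was the same under every alternative run, with log2 fold changes from 0.17 to 0.47 and from -0.77 to -0.38. The directions that turned belonged to probes with reported log2 fold changes within 0.25 of 0. With median scaling these were *Nampt* at -0.096 (A_51_P387235) and -0.054 (A_52_P6328), *Nadsyn1* at -0.11 (A_51_P140350) and -0.023 (A_52_P41953), and *Cd38* (A_52_P168962) at -0.074. Without scaling they were *Nampt* at -0.18 and -0.14, *Nadsyn1* at -0.20 and -0.11, *Naprt* at -0.020 and *Cd38* at -0.16, on the same probes. Quantile normalization gave 0.0092 for *Nmnat3* and -0.14 for *Cd38*, and array weights gave -0.020 for *Nampt* (A_51_P387235). With 1 sample left out, the log2 fold changes that crossed 0 ran from -0.043 to 0.076 for *Nampt* (A_51_P387235), from -0.0054 to 0.15 for another of its probes (A_52_P6328), from -0.063 to 0.076 for *Nmnat3*, from -0.020 to 0.058 for *Nadsyn1* (A_51_P140350) and from -0.044 to 0.15 for *Cd38* (A_52_P168962). The cause was not tested.

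With the replicate block 0 member probes and 3 pathway genes passed, *Nt5e*, *Bst1* and *Slc12a8*, and 1185 probes in all, so that *Sirt1* and *Sirt4* no longer did (limma adjusted p = 0.0644 and 0.0765). *Nmrk1* then had an adjusted p of 0.0845 and *Nmrk2* of 0.118 from limma. The submitters describe the hearts as 4 pairs without saying which samples pair, and the labels do not say what the replicate number shares. Same-numbered samples deviated together with correlations of 0.204, 0.207, 0.0562 and 0.141, and each sample correlated best with its own number, a hint from the data that the labels do not settle.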
